A study of Saccharomyces cerevisiae BY4741 with 2 samples.

Results

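Budding yeast takes up glucose through a family of hexose transporters, and the 10 genes described here are the transporter genes HXT1 to HXT7, the glucose sensor genes SNF3 and RGT2, and MTH1, whose product holds the transporter genes off when glucose is absent. They were taken from the sense-strand count table by their systematic names (HXT1 YHR094C, HXT2 YMR011W, HXT3 YDR345C, HXT4 YHR092C, HXT5 YHR096C, HXT6 YDR343C, HXT7 YDR342C, SNF3 YDL194W, RGT2 YDL138W and MTH1 YDR277C). All 10 were found among the 7134 rows of the table, and all 10 passed the filter on low counts that left 6124 features for testing.

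RNA came from Saccharomyces cerevisiae grown to mid-log phase at 30°C in rich medium with 2% glucose, and was depleted of ribosomal RNA before strand-specific sequencing on the SOLiD platform. The wild type was a MATa strain with the markers ura3Δ0, met15Δ0, leu2Δ0 and his3Δ1, and the other strain, also MATa, had DBP2 replaced by a kanamycin cassette (dbp2::KanMx) and was labelled his3Δ0, leu2Δ0, ura3Δ0, TRP1, met- and lysΔ. The marker differences go with the deletion and cannot be told apart from it. Each strain had 2 libraries, called wild type 1 and 2 and deletion 2 and 3 after the names in the count table, and the libraries are treated as replicates (n = 2). The labels give 1 sample per strain, with replicates 1 and 2 named in its description, and do not say which of these replicates the columns numbered 2 and 3 of the deletion strain are. Nor do they say whether the libraries came from separate cultures. A p-value thus sets the difference between the strains against the spread of these libraries, and that spread may be technical. Total counts were 10860000 and 12586037 in wild type, against 36028173 and 24961576 in the deletion strain. The deleted gene matched the labels, with 7320 and 9662 counts of DBP2 in wild type against 66 and 237.

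Transport is the step at which the supply of glucose first meets the cell, and yeast changes its transporters with that supply. Hxt1 and Hxt3 are low-affinity carriers made when glucose is plentiful, Hxt2 and Hxt4 are carriers of higher affinity made when glucose is low, Hxt6 and Hxt7 are high-affinity carriers that glucose represses, and Hxt5 is made when growth slows. Snf3 and Rgt2 resemble transporters but act as sensors of low and of high glucose. When they bind glucose, the casein kinases Yck1 and Yck2 and the ubiquitin ligase SCF-Grr1 bring about the loss of Mth1 and its paralogue Std1, and the repressor Rgt1 then leaves the HXT promoters.

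Of the 10 genes, 7 were higher in the deletion strain, 1 was lower and 2 did not pass the test (edgeR quasi-likelihood test on TMM-scaled counts, adjusted p below 0.05 over all features). Over the whole table, 21.2% of the features tested were higher and 20.7% lower. The 10 genes were chosen with earlier results of these data known, so their count describes them and is no test. The 10 genes had a median log2 fold change of 1.51, against 0.01 over all features. In bulk cultures, a change in every cell and a change in some of them cannot be told apart. The rises were largest for HXT5 (35.3-fold), HXT7 (21.0-fold) and MTH1 (10.2-fold), followed by HXT4 (5.06-fold), HXT3 (2.90-fold), HXT1 (2.82-fold) and RGT2 (2.76-fold), while HXT2 fell 1.81-fold. With TMM factors, the libraries of the strains did not overlap for 9 of the 10 genes, 7 with the deletion libraries higher and 2 with them lower, and such separation was seen, in the same directions, for 38.3% and 36.3% of all features. In the authors' deposited table, 7 of the 10 genes were also higher and 1 lower at an adjusted p below 0.05, against 23.2% and 19.6% of its 6456 features.

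**Figure D1:**
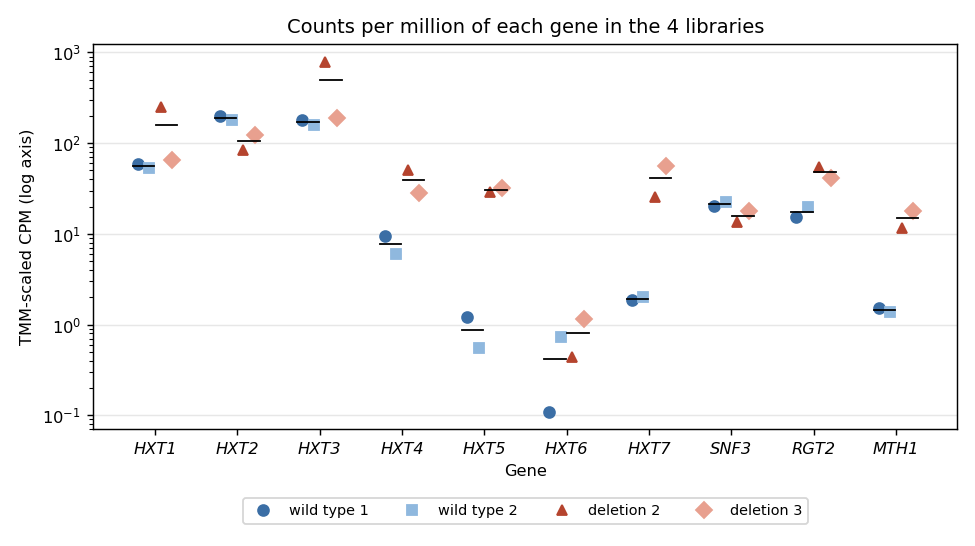
Counts scaled to library size (CPM, with TMM factors, log axis) of the 10 genes, 1 marker per library, with a black line at the mean of each strain. In HXT1 and HXT3 the library deletion 3 (64.8 and 190.0 CPM) sits just above wild type while deletion 2 (250.4 and 793 CPM) stands far above, and in HXT5, HXT7 and MTH1 both deletion libraries lie well above both wild-type libraries.

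The low-affinity carriers HXT1 and HXT3 were higher in the deletion strain on average, and most of that rise came from 1 library. HXT1 (chromosome VIII, 290913 to 292625, minus strand, 1 coding part) had 59.1 and 52.9 CPM in the wild-type libraries, 250.4 in deletion 2 and 64.8 in deletion 3. HXT3 (chromosome IV, 1162957 to 1164660, minus strand) had 179 and 160.0 CPM in wild type, 793 in deletion 2 and 190.0 in deletion 3. With TMM factors, deletion 2 was thus far above the other 3 libraries for both genes. Those libraries lay close together, and deletion 3 was above wild type by a small margin. By library totals that margin was wider. HXT1 then had 78.1 CPM in deletion 3, against 49.9 and 45.9 in wild type, and HXT3 had 229, against 151 and 139. Deletion 2 was still the highest, at 283 and 897 CPM. The log2 fold change was 1.49 for HXT1 (SE 0.49, edgeR adjusted p = 0.0346) and 1.54 for HXT3 (SE 0.51, edgeR adjusted p = 0.0357). Without deletion 2 these values were 0.21 (adjusted p = 0.631) and 0.17 (adjusted p = 0.709), and both calls were also lost in DESeq2 (adjusted p = 0.154 and 0.160) and without wild type 1 (0.0867 and 0.0903) or wild type 2 (0.126 and 0.131). With all libraries kept, both calls held under library totals (edgeR adjusted p = 0.00152 for HXT1 and 0.00156 for HXT3). They also held without the low-count filter (0.00890 and 0.00894) and in the edgeR likelihood-ratio test (0.00743 and 0.00822). HXT1 and HXT3 moved in step across the libraries. The level of HXT1 per kilobase of coding sequence was 0.328 and 0.329 of that of HXT3 in wild type, against 0.314 and 0.339 in the deletion libraries. Their coding sequences share 83.3% of 1695 aligned bases, and HXT3 shares 83.0% with HXT7. Reads that fit more than 1 of these genes may have been counted for either, and the sources used here do not say how they were assigned.

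HXT1 and HXT3 also share an upstream region crowded with the short pattern that the repressor Rgt1 is known to bind (CGGANNA on either strand). In the 1000 bases before the start codon HXT1 held 8 matches and HXT3 held 9. Among the 5996 protein-coding genes of the R64 genome with a full window of that length, 0.0334% (2 genes) held 8 or more and 66.5% held at least 1, so no gene other than this pair had as many. The stretches of 300 bases shown here hold the most Rgt1 and stress-element (AGGGG) matches for each gene. They are printed 5′ to 3′ on the gene's strand with the matches in capitals, and lie at chrVIII:292810-293109 for HXT1 and chrIV:1164919-1165218 for HXT3 (R64, minus strand).
HXT1: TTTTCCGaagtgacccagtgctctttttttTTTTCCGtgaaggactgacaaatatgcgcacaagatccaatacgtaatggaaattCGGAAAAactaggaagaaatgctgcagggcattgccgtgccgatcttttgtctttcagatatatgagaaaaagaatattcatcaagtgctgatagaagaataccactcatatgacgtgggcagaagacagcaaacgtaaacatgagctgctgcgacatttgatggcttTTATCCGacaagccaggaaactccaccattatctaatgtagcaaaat
HXT3: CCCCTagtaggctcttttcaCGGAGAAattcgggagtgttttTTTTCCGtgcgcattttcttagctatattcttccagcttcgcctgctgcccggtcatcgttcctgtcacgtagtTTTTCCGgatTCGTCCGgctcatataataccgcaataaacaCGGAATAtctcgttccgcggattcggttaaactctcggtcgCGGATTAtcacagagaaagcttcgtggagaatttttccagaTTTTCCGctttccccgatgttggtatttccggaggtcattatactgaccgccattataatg

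The genes of carriers made at low glucose, HXT2 and HXT4, went in opposite directions. HXT2 (chromosome XIII, 288079 to 289704, plus strand) had 197 and 179 CPM in wild type, against 84.7 and 124 in deletion 2 and deletion 3. Both deletion libraries were below both wild-type libraries, deletion 2 the further. It was the one member called lower, with a log2 fold change of -0.85 (SE 0.22, edgeR adjusted p = 0.0148), and the call was lost without deletion 2 (-0.60, adjusted p = 0.116). When libraries were scaled by their totals in place of TMM factors, the median of all features moved to 0.46 and HXT2 was at -0.39 (adjusted p = 0.182), so its fall is relative to the typical feature. HXT4 (chromosome VIII, 287081 to 288811, minus strand) had 9.48 and 6.04 CPM in wild type, against 50.3 and 27.8 in the deletion libraries. Each deletion library was well above both wild-type libraries, with deletion 2 again the higher, and the log2 fold change was 2.34 (SE 0.35, edgeR adjusted p = 9.74e-04).

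The region upstream of HXT2 is shown too. It had 3 matches to the Rgt1 pattern and, like that of SNF3, none to the stress element. Of all upstream windows, 55% hold that element at least once, so a window without it is common. Its stretch lies at chrXIII:287499-287798 on the plus strand, with the Rgt1 matches in capitals.
HXT2: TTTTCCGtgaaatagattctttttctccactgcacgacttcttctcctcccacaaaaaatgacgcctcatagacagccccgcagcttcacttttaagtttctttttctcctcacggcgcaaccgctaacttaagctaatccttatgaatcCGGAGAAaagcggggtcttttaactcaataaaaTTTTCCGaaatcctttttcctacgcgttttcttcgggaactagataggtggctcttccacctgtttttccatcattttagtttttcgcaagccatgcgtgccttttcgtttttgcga

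HXT5, the transporter gene of slow growth, showed the largest rise of the 10 genes and an even level in the deletion libraries. HXT5 (chromosome VIII, 294669 to 296447, minus strand) had 11 and 6 counts in wild type, against 1171 and 961 in the deletion strain, or 1.20 and 0.549 CPM against 28.7 and 31.9. Wild type was close to the lower end of what could be counted, where 3 counts correspond to 0.276 and 0.238 CPM of the library totals. The log2 fold change was 5.14 (SE 0.37, edgeR adjusted p = 2.80e-05), and 4.70 without wild type 2 and 5.77 without wild type 1, a span of more than 1.5 times in ratio.

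The high-affinity pair gave counts for HXT7 and hardly any for HXT6. HXT7 (chromosome IV, 1154216 to 1155928, minus strand) had 17 and 22 counts in wild type, against 1046 and 1685 in the deletion strain, or 1.85 and 2.01 CPM against 25.7 and 56.0. Both deletion libraries were more than 10-fold above wild type, and here deletion 3 was the higher of the pair. Its log2 fold change was 4.39 (SE 0.43, edgeR adjusted p = 1.29e-04), with 3.72 without deletion 3. HXT6 (chromosome IV, 1159608 to 1161320, minus strand) had 1 and 8 counts in wild type, against 18 and 35 in the deletion strain. Its libraries overlapped (0.109 and 0.733 CPM against 0.442 and 1.16), and its log2 fold change of 0.83 did not pass (SE 0.85, edgeR adjusted p = 0.457). At these counts the value is loose: it was 0.097 without wild type 1 and 2.84 without wild type 2 (neither called), and the ratio of summed scaled counts was 1.67 with a 95% counting interval of 0.817 to 3.85.

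HXT6 and HXT7 cannot be read as separate genes with confidence. Their coding sequences, each of 1713 bases, differ at 3 positions, all near the 3′ end, after 1631 bases with no difference, and the 84 bases before the start codon are also identical. Counted from 1 at the A of the start codon, with the HXT6 base first, the differences are T1632C, G1666A and T1677C. A stretch of 60 coding bases (1618 to 1677) that holds all 3 is printed with the differing bases in capitals, from chrIV:1159644-1159703 for HXT6 and chrIV:1154252-1154311 for HXT7 (R64, minus strand).
HXT6: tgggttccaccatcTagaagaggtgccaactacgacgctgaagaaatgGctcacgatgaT
HXT7: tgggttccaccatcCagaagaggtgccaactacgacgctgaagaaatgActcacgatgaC
When the counts of both genes were added into 1 row, the pair had 1.96 and 2.75 CPM in wild type, against 26.1 and 57.1 in the deletion strain, a 17.5-fold rise (log2 fold change 4.13, SE 0.43, edgeR adjusted p = 1.80e-04). If reads that fit both genes were left out, the counts of both would be too low in every library, since so little sequence tells them apart; the sources used here do not say whether they were.

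Upstream, HXT5, HXT6 and HXT7 held more than 1 stress element each, as did MTH1 with 3, and the other members had at most 1. This element, AGGGG on either strand, is the pattern that the stress factors Msn2 and Msn4 are known to bind. HXT6 had 5 matches in 1000 bases, HXT7 had 4 and HXT5 had 2, against shares of all upstream windows of 0.634% for at least 5, 2.23% for at least 4 and 21% for at least 2. The stretches with the most matches to this element and to the Rgt1 pattern lie at chrVIII:296697-296996 for HXT5 and chrIV:1156411-1156710 for HXT7 (R64, minus strand), with both kinds of match in capitals.
HXT5: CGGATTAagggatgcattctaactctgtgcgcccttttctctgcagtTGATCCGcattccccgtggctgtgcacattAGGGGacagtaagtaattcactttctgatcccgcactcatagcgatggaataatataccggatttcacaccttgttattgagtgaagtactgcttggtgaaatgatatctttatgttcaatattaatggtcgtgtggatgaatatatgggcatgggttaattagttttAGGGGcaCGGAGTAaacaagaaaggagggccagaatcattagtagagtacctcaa
HXT7: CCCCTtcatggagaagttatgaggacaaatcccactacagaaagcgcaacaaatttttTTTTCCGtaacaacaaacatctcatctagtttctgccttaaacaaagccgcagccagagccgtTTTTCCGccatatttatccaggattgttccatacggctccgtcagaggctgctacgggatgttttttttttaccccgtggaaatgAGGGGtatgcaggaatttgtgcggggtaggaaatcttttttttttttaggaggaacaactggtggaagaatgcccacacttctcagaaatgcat

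The sensors differed from each other. SNF3, the sensor of low glucose (chromosome IV, 111580 to 114234, plus strand), had 20.5 and 22.6 CPM in wild type, against 13.4 and 17.6 in the deletion strain. Both deletion libraries were below wild type with TMM factors, but the log2 fold change of -0.47 did not pass (SE 0.25, edgeR adjusted p = 0.152). By library totals the strains overlapped, at 17.3 and 19.6 CPM against 15.2 and 21.3, and the log2 fold change was -0.02. RGT2, the sensor of high glucose (chromosome IV, 213351 to 215642, plus strand), had 15.2 and 19.6 CPM in wild type, against 54.8 and 41.1 in the deletion strain. Its deletion libraries were both well above wild type, with a log2 fold change of 1.46 (SE 0.24, edgeR adjusted p = 0.00174). MTH1 (chromosome IV, 1014401 to 1015702, minus strand) had 14 and 15 counts in wild type, against 470 and 544 in the deletion strain, or 1.53 and 1.37 CPM against 11.5 and 18.1. The wild-type libraries were nearly equal, deletion 3 was above deletion 2, and the log2 fold change was 3.35 (SE 0.38, edgeR adjusted p = 2.63e-04).

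**Figure D2:**
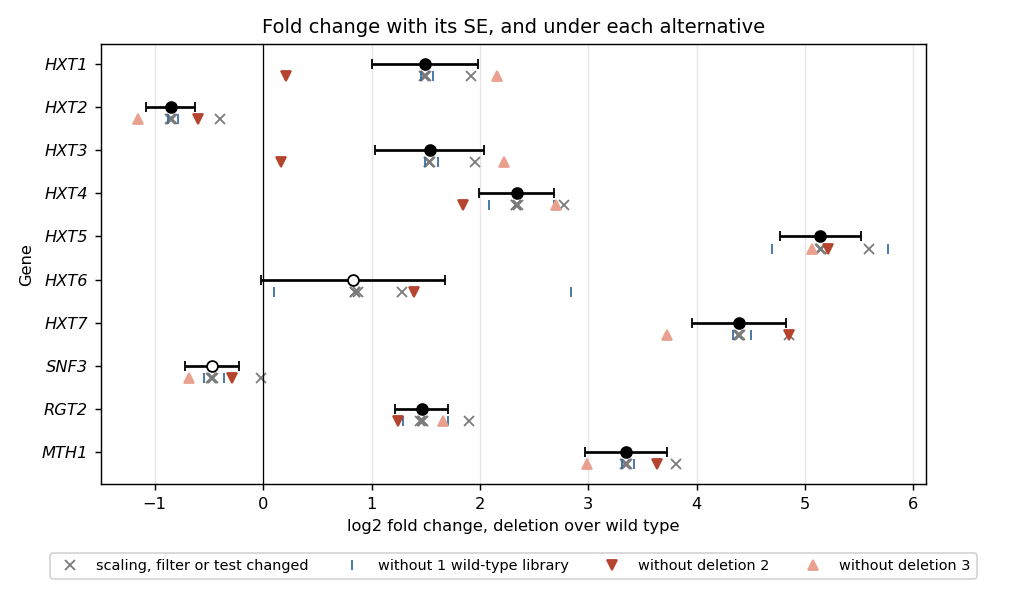
Log2 fold change of each gene (deletion over wild type) with its SE as black bars, filled where the edgeR test passed and open where it did not. The smaller markers under each gene give the value with another scaling, filter or test or with 1 library left out. HXT1 and HXT3 fall to 0.21 and 0.17 without deletion 2, while HXT4, HXT5, HXT7, RGT2 and MTH1 stay at 1.24 or above in each of these settings.

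Per kilobase of coding sequence, the order of the members changed between the strains. The levels and places of HXT6 and HXT7 rest on how reads that fit both were counted, which is not known here. In wild type HXT2 stood highest at 116 ± 7.73 CPM per kb (SD, n = 2), followed by HXT3 at 99.5 ± 7.97 and HXT1 at 32.7 ± 2.54. SNF3 (8.12 ± 0.567) and RGT2 (7.58 ± 1.37) did not differ beyond their spread, and HXT4 was at 4.48 ± 1.40. HXT7 (1.13 ± 0.0668), MTH1 (1.11 ± 0.0827), HXT5 (0.491 ± 0.258) and HXT6 (0.246 ± 0.257) closed the order, with HXT7 and MTH1 within their spread of each other, as were HXT5 and HXT6. Among 5595 protein-coding genes ranked from the highest, HXT2 was at place 940, HXT3 at 1058, HXT7 at 5364, MTH1 at 5370 and HXT5 at 5471. In the deletion strain HXT3 moved to 305 and HXT1 from 2412 to 1028, while HXT2 moved to 1430 and HXT7 and HXT5 to 3090 and 3688. There HXT3 stood at 288 ± 250.1 CPM per kb (SD, n = 2) and HXT1 at 92.0 ± 76.6, a spread almost as large as the mean, so their places rest on deletion 2. HXT2 followed at 64.2 ± 17.1. HXT7 (23.8 ± 12.5), HXT4 (22.6 ± 9.17), RGT2 (20.9 ± 4.22) and HXT5 (17.1 ± 1.26) lay within reach of each other's spread. The means of MTH1 (11.4 ± 3.55), SNF3 (5.85 ± 1.11) and HXT6 (0.468 ± 0.298) were lower, with MTH1 still within reach of the spread of HXT7 and HXT4.

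The make-up of the transporter RNA was nearly the same in both wild-type libraries and different in each deletion library. Summed over HXT1 to HXT7, the level was 268 and 241 CPM per kb in wild type (4111 and 4386 counts), 724 in deletion 2 (50237 counts) and 293 in deletion 3 (14924 counts). HXT2 gave 45.2% and 45.9% of the sum in wild type, 7.19% in deletion 2 and 26.0% in deletion 3. HXT1 and HXT3 together gave 52.1% and 51.9% in wild type, 84.5% in deletion 2 and 51.0% in deletion 3. HXT5, HXT6 and HXT7 together gave 0.678% and 0.795% in wild type, 4.34% in deletion 2 and 17.5% in deletion 3. By these counts and with TMM factors, deletion 3 had nearly the summed level of wild type. It also had nearly the HXT1 and HXT3 share of wild type, with part of the HXT2 share replaced by HXT7, HXT5 and HXT4. The shares do not change with the scaling of a library, but the level does. By library totals HXT1 had 78.1 CPM in deletion 3, against 49.9 and 45.9 in wild type, and HXT3 had 229, against 151 and 139. HXT2 had 150 by that scaling, against 167 and 156. If reads that fit both HXT6 and HXT7 were left out, the levels of these genes are too low. The sums and all shares would then change as well, in each library. With TMM factors, the strain means of the sum were 254 ± 19.6 and 508 ± 305 CPM per kb (SD, n = 2), which is not a difference beyond the spread of the deletion libraries. By library totals the means were 218 ± 12.7 and 586 ± 329, a ratio of 2.69 against 2.00 with TMM factors. An exact permutation test of 2 libraries against 2 cannot give a two-sided p below 0.333, and none was run.

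**Figure D3:**
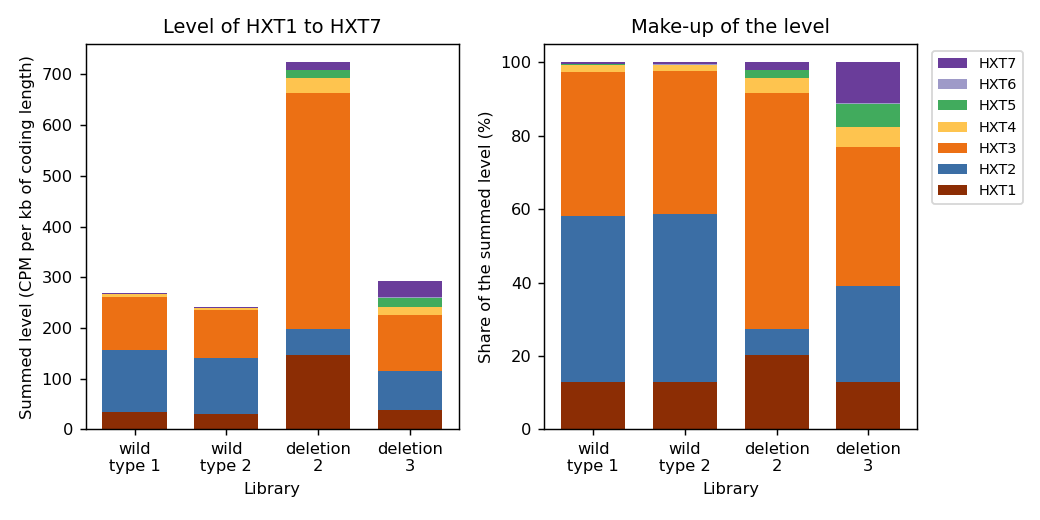
Stacked bars of HXT1 to HXT7 in each library, as CPM per kb of coding length on the left and as a share of the sum on the right. The levels of HXT6 and HXT7, and so the sums and shares, depend on how reads that fit both were counted. With TMM factors, the sum in deletion 2 (724) stands apart from the other libraries (241 to 293). The HXT2 band (blue) shrinks from 45.2% and 45.9% in wild type to 7.19% and 26.0%.

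The deletion libraries differed from each other widely in some of these genes and little in others. HXT3 was 4.17-fold and HXT1 3.87-fold higher in deletion 2 than in deletion 3, and of 6119 features 0.311% and 0.474% differed at least as far between these libraries. MIG2, a repressor gene known to be switched on by glucose through the same sensors, was 2.76-fold higher in deletion 2 (1.21% of features differed as far). It was picked from the 15 other genes of the glucose-induction pathway. The rest of these ran from 0.736 (CDC53) to 1.48 (CYC8) for deletion 2 over deletion 3. In the other direction HXT7 was 2.18-fold higher in deletion 3 (2.89% of features as far), MTH1 1.57-fold (10.1%) and HXT2 1.46-fold (14.1%). HXT6 was 2.63-fold higher in deletion 3, but from 18 and 35 counts. HXT5 was nearly level, at 1.11-fold higher in deletion 3 (63.4% of features as far). HXT1, HXT3 and MIG2 were thus higher in deletion 2, as were HXT4 (1.81-fold, 5.57% of features as far) and RGT2 (1.33-fold, 23.7%), while HXT7, HXT6, MTH1, HXT2 and SNF3 (1.31-fold, 25.6%) were higher in deletion 3. Between the wild-type libraries HXT1, HXT2, HXT3, HXT7, SNF3 and MTH1 differed by 0.164 or less on the log2 scale. Wild type 2 over wild type 1 was 0.37 for RGT2, -0.52 for MIG2, -0.65 for HXT4, -1.13 for HXT5 and 2.75 for HXT6, the last pair from 11 counts or fewer. Over all features the median size of the log2 ratio was 0.276 for the wild-type pair, against 0.217 for the deletion pair. What set the deletion libraries apart was not tested, and with 1 library of each kind no test can be made.

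**Figure D4:**
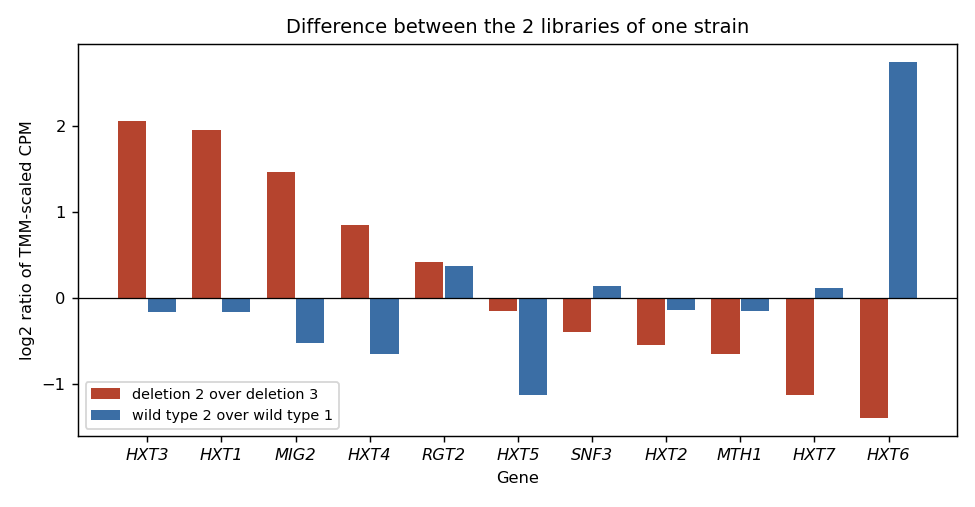
Log2 ratio of TMM-scaled CPM between the libraries of a strain, deletion 2 over deletion 3 in red and wild type 2 over wild type 1 in blue, for the 10 genes and MIG2. HXT3 (2.06), HXT1 (1.95) and MIG2 (1.46) lie high and HXT7 (-1.12) and HXT6 (-1.40) low for the deletion libraries; the tall blue bar of HXT6 comes from 1 and 8 counts.

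A wider search of the 1000 bases upstream gave each member a different mix of patterns. The third pattern, the core of the site of the repressor Mig1, was searched on either strand as GGGG with a C or T before it and a C or G before that. It cannot coincide with a stress element on the same strand, and matches to different patterns may share a base, as at MTH1. HXT2 and HXT4 had 4 Mig1 matches each (0.834% of all windows have at least 4), HXT6 and MTH1 had 3 and HXT1, HXT3, HXT7 and SNF3 had 2. MTH1 and HXT5 had 4 Rgt1 matches each (3.49% of windows have at least 4). SNF3 and RGT2 had no Rgt1 match. These counts describe letters, not bound sites. The window of HXT6 runs into the dubious reading frame YDR344C, that of HXT4 into AHT1 and that of HXT5 into the coding gene PAL2. Genes next to HXT2, SNF3, RGT2 and MTH1 are not listed here.

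**Figure D5:**
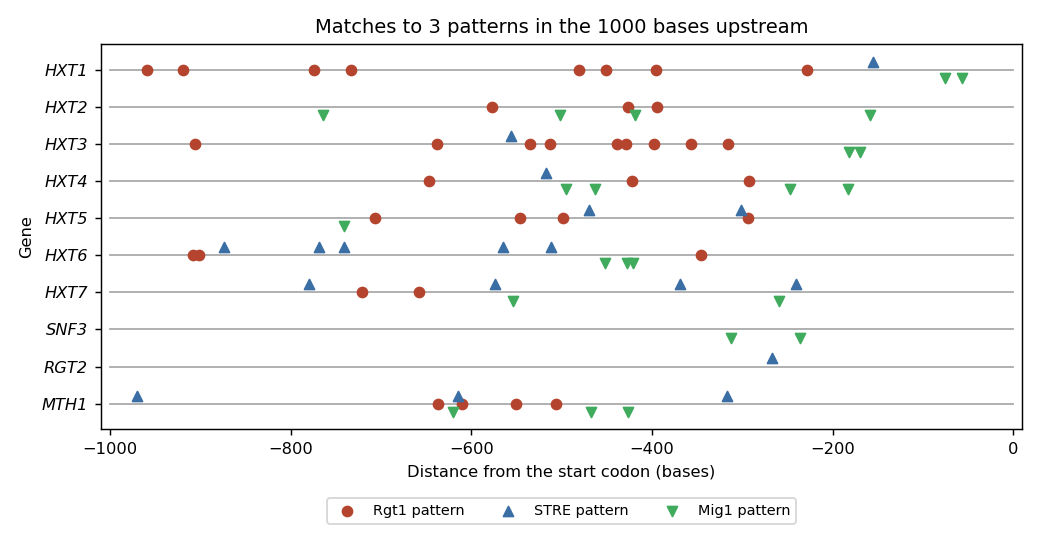
Positions of matches to the Rgt1 (red circles), stress-element (blue triangles, up) and Mig1 (green triangles, down) patterns on either strand in the 1000 bases before the start codon at 0. HXT1 and HXT3 carry 8 and 9 Rgt1 matches, and HXT6 and HXT7 carry 5 and 4 stress elements.

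The rest of the transporter family was barely counted. Of 11 further genes, HXT8 to HXT17 and the galactose transporter gene GAL2, 5 passed the filter, 2 were called higher and 0 lower (3 not called, median log2 fold change 0.57), against 21.2% and 20.7% of all features; at an unadjusted p below 0.05 the count was also 2 and 0, and DESeq2 called none of the 5, adjusted or not. HXT9 went from 4 and 7 counts in wild type to 60 and 56 (3.03-fold, edgeR adjusted p = 0.0410) and HXT17 from 2 and 1 to 40 and 21, a ratio of scaled counts of 5.77 with a 95% counting interval of 1.88 to 28.7 (edgeR adjusted p = 0.0370). Both calls were lost without the low-count filter (adjusted p = 0.0514 and 0.0546) and without each of the 4 libraries in turn (adjusted p 0.101 to 0.202 for HXT9 and 0.0773 to 0.215 for HXT17). Close relatives in the family may share reads, so these values are uncertain. GAL2 had 3 and 6 counts in wild type, against 22 and 12 in the deletion strain, and HXT16 had 0 counts in all 4 libraries.

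Of 15 other genes of the glucose-induction pathway, 5 were higher, 3 lower and 7 not called, with a median log2 fold change of 0.15. The share lower was near the 20.7% of all features and the share higher somewhat above their 21.2%, and under library totals the counts were 7 higher and 2 lower. MIG2 had 7.08 and 4.95 CPM in wild type, against 89.2 and 32.4 in the deletion libraries, a 10.2-fold rise (log2 fold change 3.35, SE 0.46, edgeR adjusted p = 6.98e-04). Without deletion 2 its log2 fold change was 2.43. STD1, the paralogue of MTH1, rose 2.02-fold (24.5 and 20.9 CPM against 48.9 and 42.6), and the repressor gene MIG1 rose 2.35-fold. YCK1, a casein kinase gene, rose 1.56-fold (45.7 and 33.3 CPM in wild type) and CDC34, the ubiquitin-conjugating enzyme that works with SCF, 2.24-fold. The other casein kinase gene, YCK2, had more RNA (134 and 163 CPM in wild type) and was not called (log2 fold change 0.10, edgeR adjusted p = 0.698). Under library totals YCK2 was called higher (0.55, edgeR adjusted p = 0.0447). Of the genes of SCF-Grr1 itself, SKP1 fell 2.21-fold and CDC53 1.73-fold, while GRR1, its F-box subunit, was not called (log2 fold change 0.19, adjusted p = 0.499) and was called higher under library totals (0.65, adjusted p = 0.0321). The calls of YCK1 and CDC53 lay near the threshold: YCK1 lost its call without wild type 2 (adjusted p = 0.146), deletion 2 (0.134) or deletion 3 (0.0608), and CDC53 without wild type 1 (0.0608) or deletion 2 (0.124) and under library totals (0.244). HXK2, the hexokinase that also takes part in glucose repression, fell 4.35-fold, from 1925 and 2303 CPM to 546 and 425. RGT1 itself was not called, at 56.5 and 43.0 CPM in wild type, against 43.1 and 52.8 in the deletion strain.

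Most of the transporter genes lie in clusters, and their neighbours did not all move with them. HXT4, HXT1 and HXT5 lie within 9367 bases of chromosome VIII, and HXT7, HXT6 and HXT3 within 10445 bases of chromosome IV, all on the minus strand. Next to the first cluster, PAL2 (YHR097C, chromosome VIII, 297385 to 298609), upstream of HXT5, rose 5.30-fold (3.92 and 5.40 CPM against 22.9 and 26.7, edgeR adjusted p = 3.36e-04), while MSR1, past HXT4, was not called (log2 fold change -0.21). Next to the second, YDR341C, past HXT7, fell by 1.13 on the log2 scale and SVF1, upstream of HXT3, fell 2.84-fold. The dubious frame YDR344C between HXT6 and HXT3 was not called, AHT1 between HXT4 and HXT1 had 0 counts in all libraries, and YHR095W, on the plus strand between HXT1 and HXT5, had 0 counts in both wild-type libraries and 14 and 4 in the deletion libraries. Of the 5 neighbours tested, 1 was higher and 2 lower, too few to set against the 21.2% and 20.7% of all features.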

How the data were processed

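The deposited count table holds raw counts of sense-strand reads per feature for 4 libraries, per the file headers and the whole-number values. The authors' deposited edgeR table gives log2 fold changes and mean log2 CPM with p-values and adjusted p-values, per the file headers. The sources used here name no aligner, no counter and no test or filter behind that table. The genome build was R64, per the submitters' processing notes, and coordinates, coding lengths and sequences come from the RefSeq copy of R64 (1-based).

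Counts of the whole table were fitted with edgeR 4.0.16 in R 4.3.3 (filterByExpr, TMM factors, glmQLFit, glmQLFTest), with Benjamini-Hochberg adjustment over 6124 features. CPM values are TMM-scaled, levels of different genes are given per kilobase of coding length, and an SE is the log2 fold change over the square root of F. DESeq2 1.42.0, library totals, no filter, the likelihood-ratio test and leaving out each library were alternatives. A floor of 3 counts, and counting limits, cover counting error only.

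All 10 members are named; of the other lists every called gene may be named, and others by count or where a result turns on them. The members and lists were chosen with earlier results of these data known.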

Additional observations from a re-analysis of the deposited data

How the results depend on the processing

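Over the alternatives run, the log2 fold changes of the 10 genes kept their direction in 81 of 81 values, each of a gene in a setting, and their side of the threshold in 70. The row of HXT6 added to HXT7 is counted for both genes. HXT4, HXT5, HXT7, RGT2 and MTH1 stayed called higher in each setting, and SNF3 stayed uncalled. In DESeq2 the values of HXT1 and HXT3 were 1.49 and 1.53 and no longer passed (adjusted p = 0.154 and 0.160). The cause was not tested. Both passed under library totals, without the low-count filter and in the likelihood-ratio test. Under library totals HXT2 was at -0.39 and not called (edgeR unadjusted p = 0.119), which left 0 members lower. The mean sum of HXT1 to HXT7 was then 218 CPM per kb in wild type and 586 in the deletion strain. Over all features, library totals gave 2502 higher and 583 lower (81.1% of calls higher, against 50.6% with TMM factors), with a median of 0.46. Leaving out 1 library at a time, HXT1 ran from 0.21 to 2.16, HXT3 from 0.17 to 2.23 and HXT2 from -1.15 to -0.60, with 5 to 7 members higher and 0 to 1 lower; the values nearest 0, and the count of 0 lower (HXT2 unadjusted p = 0.0428), came without deletion 2. Over all features the same refits gave 871 to 1313 higher and 853 to 1127 lower. HXT6 added to HXT7 gave 4.13 and passed. The refits of the other lists' genes were added after the data were seen. Without deletion 3, HXT6 did not pass the filter and has no value; with 1 library left in a strain, that library is assumed to vary like the others. No paired analysis was possible because the columns of the strains share 1 library number, which pairs nothing. Depth limits HXT5, HXT6, HXT7 and MTH1 in wild type, where counts were 22 or fewer.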
